A study of Rattus norvegicus with 6 samples.

Results

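Complement is a set of plasma and cell surface proteins that marks microbes, immune complexes and dying cells for removal. This account follows 9 complement components and regulators in the cerebral arteries of Dahl rats. They were chosen by gene symbol: C1qa, C1qb, C1r and C1s, which start the classical pathway, C2 and C3, and the regulators Cd55, Cd59 and Serping1. Of these 9 genes, 7 had a probe set of their own among the 10411 genes of the array. C2 was only on a probe set annotated to a second gene as well and is not reported. Cd59 did not occur under that symbol, and Cd59b, for which RefSeq lists Cd59 as an older name, is given apart from the members.

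The arteries came from Dahl rats that started a diet at 7 weeks of age, after chow with 0.4% NaCl in all of them. The low salt group stayed on 0.4% NaCl for 12 weeks. The high salt group ate chow with 8% NaCl, for 12 weeks by one label and 11 weeks by another. Middle and posterior cerebral and posterior cerebellar arteries were used whole, each array held RNA pooled from 3 rats, and 3 arrays stood for each diet. The labels do not say whether the Dahl line was the salt-sensitive one, nor which pools were snap frozen and which were kept in RNAlater.

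The classical pathway begins when C1q, a bundle of A, B and C chains encoded by C1qa, C1qb and C1qc, binds an antibody or a dying cell. C1q then activates the proteases C1r and C1s, and these lead to the splitting of C3, the step on which all complement pathways meet. Serping1 (C1 inhibitor) blocks C1r and C1s, Cd55 (decay-accelerating factor) takes apart the enzymes that split C3, and Cd59 blocks the final membrane pore. In tissue, C1q is made mainly by macrophages and microglia, while C1r, C1s, C3 and Serping1 are also made by fibroblasts and other cells. The arrays measured whole arteries, so fewer cells of a type and less RNA per cell cannot be told apart.

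All 7 measured members had a higher mean on high salt, and none of them passed the test across the array. Their median difference (high salt less low salt, as log2 values throughout) was 0.72, against 0.07 over all genes, and a difference above 0 was found in 60.0% of all genes. C1qa, Cd55 and C1r stood apart between diets, with every high salt array above every low salt array; 8.64% of all genes did so. By limma with Benjamini-Hochberg adjustment over 15866 probe sets, 0 of 7 members passed at 0.05, where 0% of genes did, and each member had an adjusted p of 0.803. At an unadjusted p below 0.05 stood 3 of 7 members, the same C1qa, Cd55 and C1r, where 5.72% of all genes were higher at that level. Leaving out low salt replicate 3 brought that count to 5, with C1qb and C3 added, where 5.45% of all genes were higher at that level. The count of members standing apart was 5 without that array, where 13.9% of all genes stood apart, and 5 without high salt replicate 1, where 11.9% did.

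The arrays themselves differed in their deposited values. From lower to upper quartile the values spanned 2.57 on low salt replicate 1 and 2.92 to 3.18 on the other arrays. The mean correlation of an array with the others of its diet was 0.943 to 0.967 on low salt and 0.983 to 0.986 on high salt. Low salt replicate 1 held the lowest value for 5 of the 7 members. It also held the lowest value for 36.5% of all genes and for 54.3% of those above the median gene. Bright genes tended to be higher on high salt: the median difference was 0.26 in the brightest of 5 equal brightness groups of genes and -0.04 in the dimmest. Of the 7 members, 6 lay above the median of their own brightness group, by 0.10 for C1qb to 1.04 for Cd55, and Serping1 lay at -0.03 from it. Without low salt replicate 1 the members' median was 0.48, and the same 3 members stood apart between diets, where 11.8% of all genes did. Smooth muscle markers were present on all arrays. Myh11 stood at 13.1 to 13.7 and Tagln at 13.3 to 13.9, against array medians of 7.96 to 8.17. All 8 measured were lower on high salt, with a median of -0.15. Of all genes, 4161 of 10411 were lower, as were 1280 of the 5205 genes above the median gene. Over the genes above the median gene the median difference was 0.23. Myl9, the one of lowest p, differed by -0.74 ± 0.30 (SE), and Tagln, the brightest, by -0.09 ± 0.16.

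**Figure D1:**
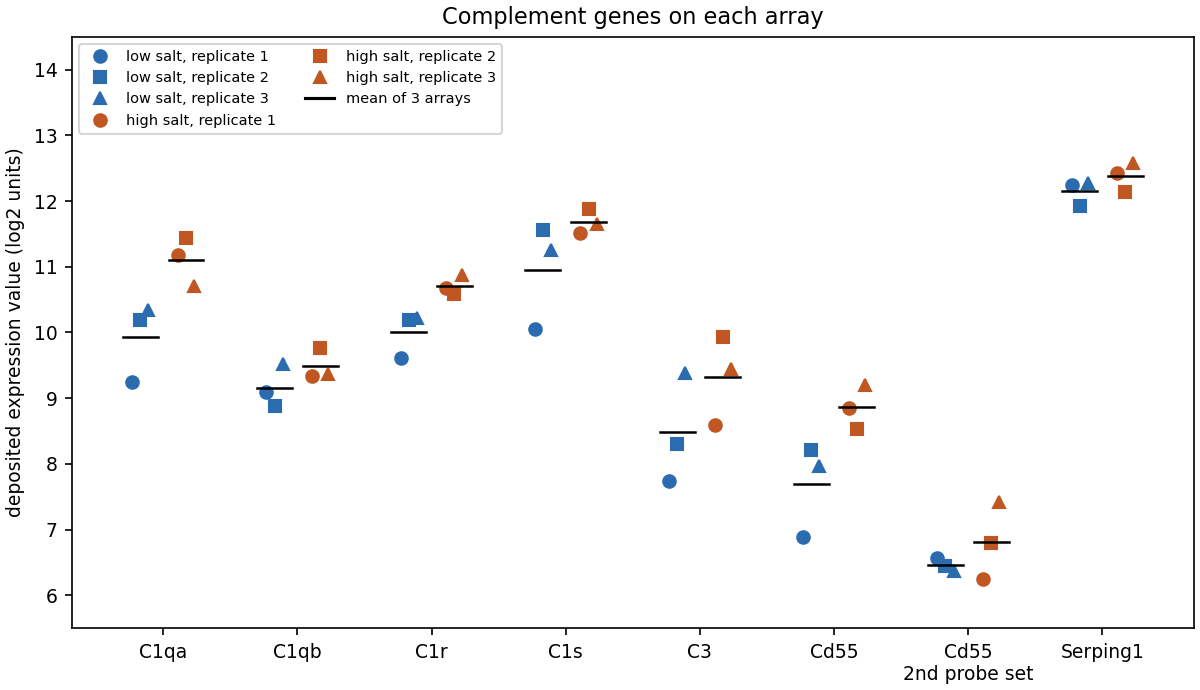
Deposited log2 expression value (vertical axis) of each complement gene on each of 6 arrays, with low salt in blue, high salt in orange, 1 symbol per replicate number and a bar at each mean of 3 arrays. C1qa, C1r and the main Cd55 probe set do not overlap between diets, and the others do; levels of different probe sets are not comparable with each other.

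C1qa encodes the A chain of C1q. Its values were 9.24, 10.2 and 10.3 on low salt replicates 1, 2 and 3, and 11.2, 11.4 and 10.7 on high salt replicates 1, 2 and 3. All high salt arrays lay above all low salt arrays, and low salt replicate 1 lay furthest down. The means were 9.92 ± 0.60 (SD, n = 3) on low salt and 11.1 ± 0.37 on high salt. The difference was 1.19 ± 0.34 (SE), or 2.27-fold, with a 95% interval from 0.34 to 2.03 and an adjusted p of 0.803 (limma, Benjamini-Hochberg). It stood at 0.84 without low salt replicate 1. With the deposited values it was just above that of Cd55. In some other settings Cd55 was above it, as with quantile normalization (0.96 for C1qa and 1.08 for Cd55). In the rest C1qa stayed above, as with median centring (1.05 for C1qa and 1.04 for Cd55).

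C1qb encodes the B chain. Its values were 9.09, 8.88 and 9.52 on low salt and 9.34, 9.76 and 9.36 on high salt, in order of replicate number. The diets overlapped, since low salt replicate 3 lay above high salt replicates 1 and 3. The difference was 0.33 ± 0.21 (SE), with a 95% interval from -0.19 to 0.84. It shrank to 0.20 once arrays were centred on their medians, to 0.09 once they were quantile normalized, and to 0.13 with array weights. With 1 array left out it ran from 0.18 (without low salt replicate 2) to 0.50 (without low salt replicate 3), with 0.19 without high salt replicate 2.

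The C chain, C1qc, belonged to the wider pathway list. It stood at 11.5, 10.4 and 11.0 on low salt and 11.0, 11.8 and 10.6 on high salt, with full overlap. The difference was 0.10 ± 0.40 (SE), with a 95% interval from -0.89 to 1.09, and its sign turned to -0.03 with median centring and -0.12 with quantile normalization. The genes of the 3 chains are neighbours in the rat genome.

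The gap between C1qa and C1qb within each array, which adding a constant to an array cannot move, was wider on high salt by 0.86. Relative to its mean over 6 arrays it was -1.04, 0.12 and -0.36 on low salt and 0.64, 0.48 and 0.16 on high salt. The diets did not overlap, and the exact two-sided permutation test over the 20 ways to split 3 against 3 arrays gave p = 0.1, the smallest it can give. For C1qa against C1qc the gap was wider by 1.08 (exact permutation p = 0.2), where low salt replicate 1 stood at -1.76 and low salt replicate 2 at 0.30. These are 2 of 5 gene pairs compared in this way, chosen after the values were seen, and the adjusted exact p was 0.333 for both.

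C1r and C1s encode the proteases that C1q carries. C1r was at 9.60, 10.2 and 10.2 on low salt and at 10.7, 10.6 and 10.9 on high salt. The high salt arrays lay close together and above all low salt arrays. The difference was 0.71 ± 0.20 (SE), or 1.63-fold, with a 95% interval from 0.22 to 1.19. It stood at 0.58 after median centring, 0.47 after quantile normalization and 0.51 without low salt replicate 1.

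C1s was at 10.1, 11.6 and 11.3 on low salt and at 11.5, 11.9 and 11.6 on high salt. Low salt replicate 1 lay far below the other 5 arrays, and low salt replicate 2 lay within the high salt range. The difference of 0.72 ± 0.40 (SE; 95% interval from -0.26 to 1.71) was much like that of C1r in size, but it stood at 0.27 without low salt replicate 1. The gap between C1r and C1s moved by -0.02 between diets (exact permutation p = 1).

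Stretches just before the annotated start of C1qa, C1qb and C1r are shown to set the C1 genes that stood apart between diets, C1qa and C1r, beside C1qb, which overlapped. They are the 250 bases before the start, read 5′ to 3′ on the gene's own strand, from RefSeq on the build GRCr8; 5 of the 7 measured members had an entry. Capitals mark matches on either strand to the GAS motif of interferon-activated STAT factors, TTCNNNGAA, or to GAGGAA. The latter is 1 form of the site bound by ETS factors such as the macrophage factor PU.1. Other forms were not searched, so their absence from a stretch is not shown.
C1qa, chr5:154419934-154420183, minus strand: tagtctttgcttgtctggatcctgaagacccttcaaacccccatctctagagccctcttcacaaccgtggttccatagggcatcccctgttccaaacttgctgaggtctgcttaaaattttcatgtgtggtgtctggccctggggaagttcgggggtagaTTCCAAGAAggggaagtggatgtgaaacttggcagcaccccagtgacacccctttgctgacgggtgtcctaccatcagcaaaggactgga
C1qb, chr5:154407828-154408077, minus strand: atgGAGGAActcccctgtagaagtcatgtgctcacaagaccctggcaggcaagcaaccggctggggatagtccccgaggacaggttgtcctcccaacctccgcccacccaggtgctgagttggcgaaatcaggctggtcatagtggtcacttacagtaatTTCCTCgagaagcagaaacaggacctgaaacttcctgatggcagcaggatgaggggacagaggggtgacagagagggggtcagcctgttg
C1r, chr4:159098763-159099012, plus strand: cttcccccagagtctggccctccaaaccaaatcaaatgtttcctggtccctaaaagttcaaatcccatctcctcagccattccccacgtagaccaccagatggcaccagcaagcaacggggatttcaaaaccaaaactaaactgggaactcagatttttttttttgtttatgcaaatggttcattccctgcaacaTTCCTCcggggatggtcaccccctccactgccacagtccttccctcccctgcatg
C1qa held 1 GAS match, which starts at -90 (where -1 is the last base before the gene start), and no other of the 5 members did. A GAS match was present in 7.67% of 33469 promoter windows of this length. The GAGGAA form matched at 2 places in C1qb and 1 place in C1r, and in 23.3% of all windows. The core of the interferon motif ISRE, searched as GAAANNGAA, matched in 0 of the 5 members and in 8.12% of all windows. CCAAT and TATAAA matched in 0 of 5 as well, and in 34.0% and 12.9% of all windows. The motifs do not overlap each other in these stretches, and a match describes letters and not a bound factor.

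C3 is split by every complement pathway, and its fragments coat targets and attract leukocytes. Its values were 7.75, 8.30 and 9.39 on low salt and 8.59, 9.93 and 9.44 on high salt. The diets overlapped, with low salt replicate 3 above high salt replicate 1, and the arrays of each diet were spread widely. The difference was 0.84 ± 0.52 (SE), with a 95% interval from -0.44 to 2.12. Leaving out low salt replicate 1 gave 0.48, high salt replicate 2 gave 0.54 and low salt replicate 3 gave 1.30, and array weights gave 0.27.

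Cd55 protects host cells by taking apart the enzymes that split C3. Its main probe set was at 6.88, 8.22 and 7.97 on low salt and at 8.85, 8.53 and 9.21 on high salt. Every high salt array lay above every low salt array. The difference was 1.17 ± 0.38 (SE), or 2.25-fold, with a 95% interval from 0.23 to 2.12. It stood at 0.77 without low salt replicate 1 and at 0.76 when the mean of its 2 probe sets was used.

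The second Cd55 probe set was dim, at 6.57, 6.45 and 6.36 on low salt and 6.24, 6.79 and 7.42 on high salt. High salt replicate 1 was its lowest array and high salt replicate 3 its highest. Its difference was 0.35 ± 0.30 (SE), in the same direction as the main probe set, with overlap between diets.

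Serping1, the inhibitor of C1r and C1s, was at 12.2, 11.9 and 12.3 on low salt and 12.4, 12.1 and 12.6 on high salt. The diets overlapped and the spread was small. The difference was 0.23 ± 0.16 (SE), with a 95% interval from -0.17 to 0.63, and the median gene of its brightness group differed by 0.26. It was 0.10 under either rescaling of the arrays. Leaving out low salt replicate 2 gave 0.12, high salt replicate 3 gave 0.13, and high salt replicate 2 gave 0.35. Against the inhibitor, C1r was higher on high salt by 0.48 and C1s by 0.50 within arrays. The exact permutation p was 0.2 and 0.4 (adjusted, 0.333 and 0.5), in a design where the smallest is 0.1. Relative to their means over all arrays, both gaps were lowest on low salt replicate 1, at -0.73 and -1.25. On low salt replicate 2 they lay within the high salt range, at 0.17 and 0.58. On low salt replicate 3 they lay below it, at -0.15 and -0.08. With low salt replicate 1 left out, the diets differed by 0.51 for C1r, 0.27 for C1s and 0.28 for Serping1.

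Cd59b, a gene for the inhibitor of the membrane pore, was at 11.7, 11.5 and 12.3 on low salt and at 11.3, 12.2 and 12.3 on high salt. The arrays of both diets covered much the same range. The difference was 0.09 ± 0.34 (SE), with a 95% interval from -0.74 to 0.92, and its sign turned in 6 of 14 alternatives. These gave -0.038 with median centring, -0.081 with quantile normalization and -0.21 with array weights, -0.072 without low salt replicate 2, and -0.047 and -0.082 without high salt replicates 2 and 3.

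**Figure D2:**
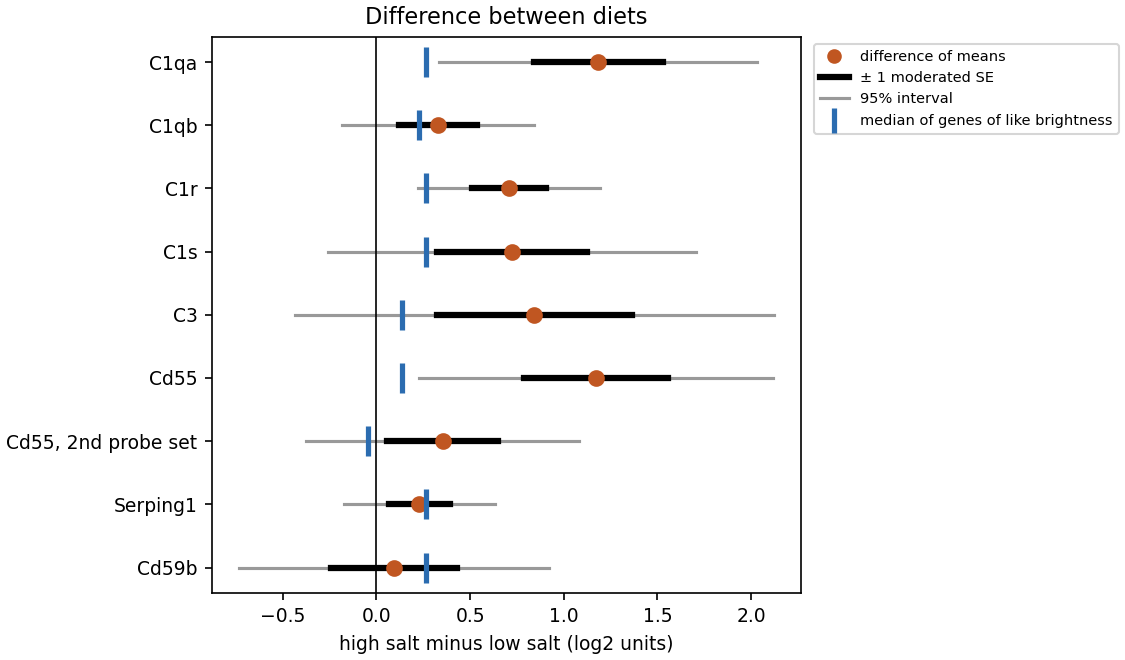
Mean on high salt less mean on low salt, as a log2 difference (horizontal axis), for each member's probe sets and for Cd59b, with 1 moderated SE as a thick bar and the 95% interval as a thin one. The blue mark is the median difference of genes of like brightness, and the intervals of C1qa, C1r and the main Cd55 probe set lie above 0.

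**Figure D3:**
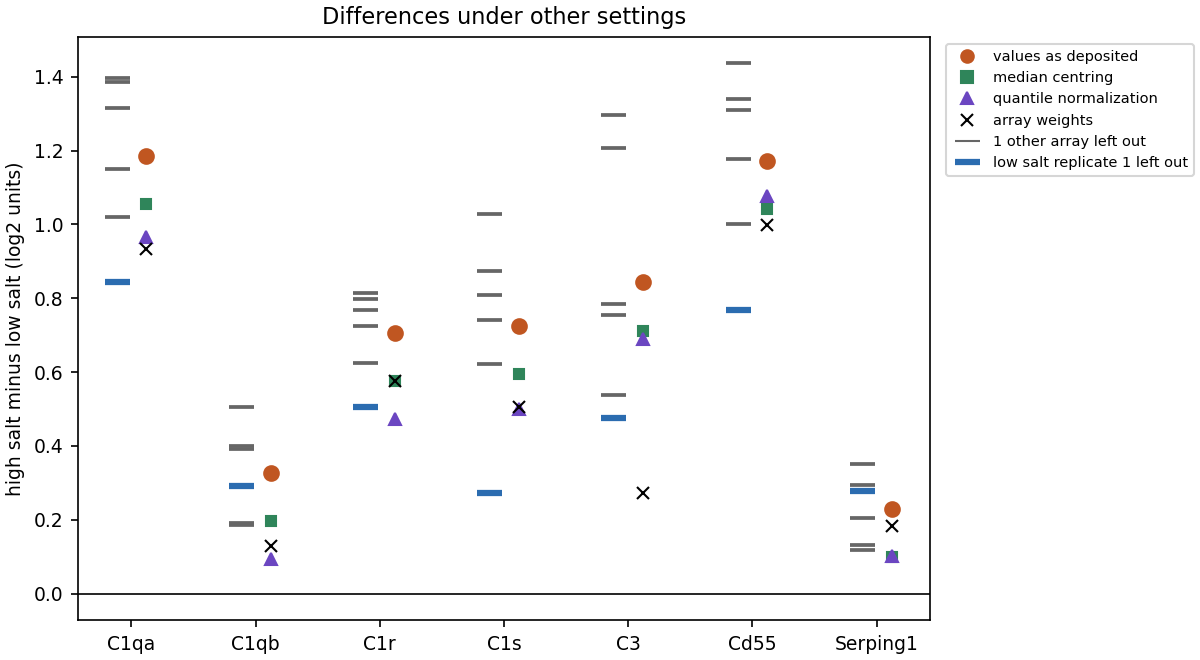
Difference between diets in log2 units (vertical axis) of the 7 members with the deposited values, after rescaling, with array weights and with 1 array left out (dashes, blue for low salt replicate 1). All points lie above 0, and leaving out low salt replicate 1 took C1s from 0.72 to 0.27.

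The rest of the complement list held 44 genes, 24 of them measured, and none passed the test (limma, Benjamini-Hochberg; 0 of 24, as for 0% of all genes). Of the 24, 12 were higher and 12 lower on high salt, with a median of -0.00025, and 1 reached an unadjusted p below 0.05, where 6.43% of all genes did. That gene was Cfd (factor D, the protease that starts the alternative pathway). It was at 8.21, 8.65 and 8.00 on low salt and at 9.76, 9.40 and 8.70 on high salt. The diets did not overlap, by a narrow margin between low salt replicate 2 and high salt replicate 3, and the difference was 1.00 ± 0.31 (SE). No gene of the list reached that level without low salt replicate 3 (5.73% of all genes) or without high salt replicate 1 (2.68%) or 2 (4.43%). Cd46 and Masp1 did in place of Cfd without low salt replicate 1 (4.32%). Clu joined Cfd without low salt replicate 2, where 20% of all genes reached it. Properdin (Cfp), which steadies the alternative pathway enzyme, differed by -0.12 ± 0.19 and by 0.14 ± 0.19 on a dimmer probe set.

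Of the 6 lectin pathway genes, 2 were higher and 4 lower. The brightest was Masp1, the lectin pathway's counterpart of C1r, with 0.20 ± 0.32 (SE), and its 2 dimmer probe sets gave 0.11 ± 0.14 and 0.07 ± 0.15. Fcnb, a ficolin, was the 1 gene of the 24 with all high salt arrays below all low salt arrays, where 3.32% of all genes were; it is named after its values were seen, and its difference was -0.13 ± 0.10. The terminal components C8b and C9, known mostly from liver, differed by -0.20 ± 0.14 and -0.18 ± 0.15.

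Among 9 other regulators, 6 were higher and 3 lower. Clusterin (Clu), which binds the forming pore, was the brightest, at 12.4, 13.4 and 12.5 on low salt and 12.7, 13.4 and 13.2 on high salt. The diets overlapped, and the difference was 0.33 ± 0.32 (SE). Of 4 complement receptors 2 were higher, and the brightest, Cd93, differed by -0.10 ± 0.41. The 9 genes of the list above the median gene in brightness had a median difference of 0.20, and all genes above that level had 0.23.

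**Figure D4:**
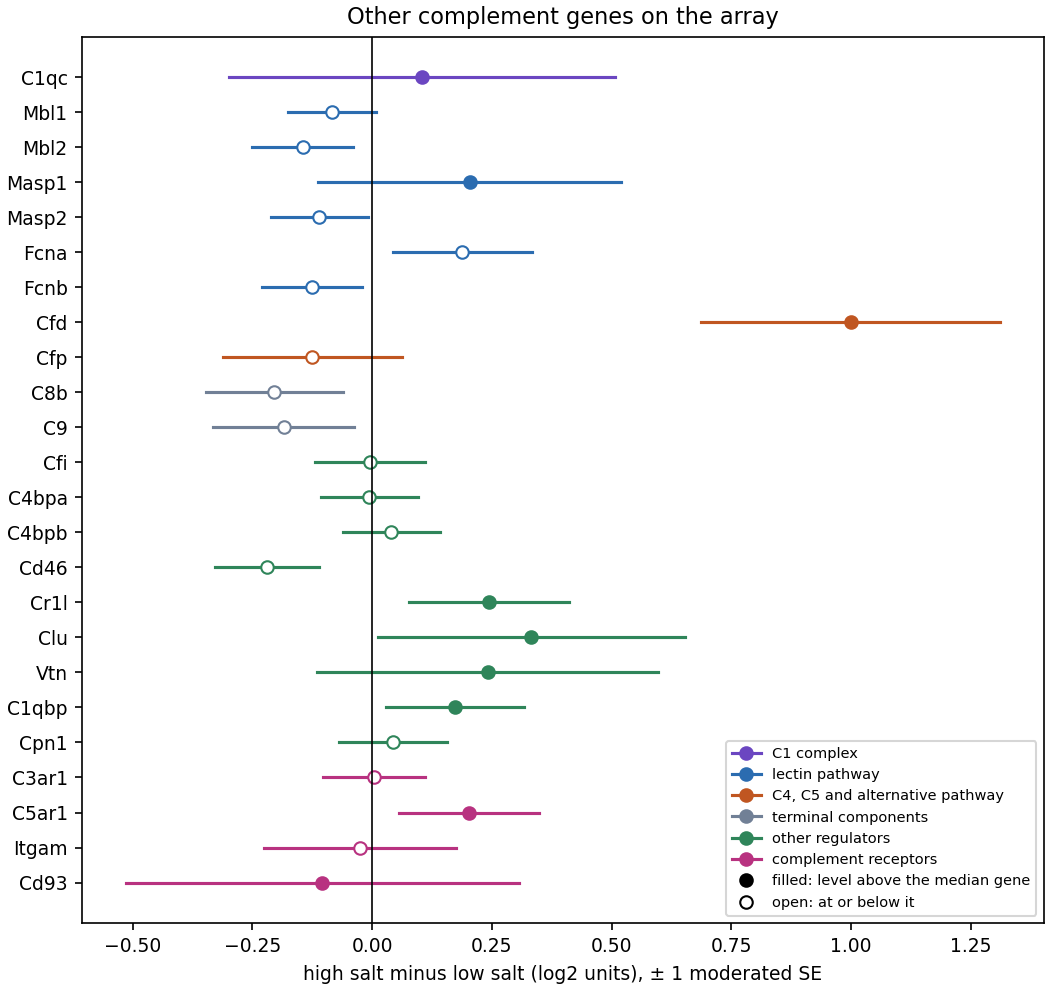
Mean on high salt less mean on low salt, as a log2 difference (horizontal axis, with 1 moderated SE) of the 24 other complement genes, coloured by role and filled where the gene is above the median gene in level. Cfd, at 1.00, lies far to the right of the rest, whose differences lie between -0.22 and 0.33.

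Cytokines and transcription factors known to raise complement genes were listed too, with Socs3, an inhibitor of cytokine signals. Of these 12 genes, 11 were measured. Of the 11, 7 were higher, where 60.0% of all genes were, and 4 lower, among them Socs3 at -0.21 ± 0.14 (SE). Their median was 0.05, and 0 passed (limma, Benjamini-Hochberg), as for 0% of all genes. At an unadjusted p below 0.05 stood 0 of 11, where 6.43% of all genes did. The brightest, Stat3, which carries the interleukin-6 signal, was at 10.5, 10.8 and 11.2 on low salt and 11.7, 10.8 and 11.4 on high salt. The diets overlapped, and the difference was 0.52 ± 0.29 (SE). A dimmer Stat3 probe set, not among the counts, was at 8.83, 9.03 and 9.47 on low salt and 9.90, 9.50 and 9.58 on high salt. There the diets did not overlap, and the difference was 0.55 ± 0.20 (limma, unadjusted p = 0.0365, adjusted p = 0.803). The cytokine genes Ifng and Il6 stood at 5.34 to 5.61 and 5.29 to 5.41 on all arrays, near the bottom of the value range. At that dim level Ifng had all high salt arrays below all low salt arrays, where 3.32% of all genes did. Its difference was -0.13 ± 0.09 (SE).

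Markers of the cells that make C1q were set beside the C1q chains. Of 10 macrophage and microglia markers measured, 9 were higher on high salt and 1 was lower. Among all genes 60.0% were higher, as were 3925 of the 5205 genes above the median gene. The markers' median difference was 0.18, against 0.07 over all genes and 0.23 over genes above the median gene. The mean level of the markers was 9.08, 9.34 and 9.54 on low salt and 9.42, 9.72 and 9.72 on high salt. Low salt replicate 3 lay within the high salt range, and the means differed by 0.30. Ctss, the brightest, differed by 0.17 ± 0.12 (SE) and Aif1, the one of lowest p, by 1.10 ± 0.61, with -0.25 ± 0.12 on its second probe set. Aif1 was at 6.67 on low salt replicate 1 and at 8.80 or above on the other arrays, and Csf1r, the receptor that macrophages need, differed by 0.19 ± 0.19. Of the 12 listed, Cd163 and Mrc1 had no probe set of their own. The part of these cells in the C1qa difference was not tested.

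Markers of other cells were read on the same arrays. The mean of 10 astrocyte markers was 9.12, 10.7 and 8.54 on low salt and 10.7, 10.3 and 10.4 on high salt. The diets overlapped, and the difference of 1.04 was the largest of the marker sets. Of the 10, 9 were higher, where 60.0% of all genes were, as were 3925 of the 5205 genes above the median gene. Gja1, the brightest, differed by 0.71 ± 0.49 (SE) and Mlc1, the one of lowest p, by 1.92 ± 0.94. The dimmer Gja1 probe sets gave -0.04 ± 0.25 and -0.14 ± 0.09. On the last of these all high salt arrays lay below all low salt arrays, where 3.32% of all genes did. The mean of 3 red blood cell markers was 10.03 to 10.2 on low salt and 10.5 to 11.2 on high salt, without overlap. Hbb differed by 0.94 ± 0.24 (SE). The fibroblast mean was 11.1 to 11.3 on low salt and 10.9 to 11.3 on high salt. Of its 8 markers, 5 were higher, where 60.0% of all genes were, and 3 lower. Dcn, the brightest, differed by -0.56 ± 0.37 (SE). Dpt, the one of lowest p, differed by -1.40 ± 0.50, with -0.23 ± 0.14 on its second probe set. The largest rise among them was Fbln1 at 0.88 ± 0.47. On low and high salt in turn, the smooth muscle mean was 11.1 to 12.0 and 11.3 to 11.5. The endothelial mean was 10.2 to 10.6 and 10.5 to 10.8, and the liver mean 6.95 to 7.52 and 6.98 to 7.59. The neuron and oligodendrocyte mean was 6.81 to 7.74 on low salt and 7.36 to 7.46 on high salt. Of its 6 markers measured, 3 were higher and 3 lower. Mbp, both the brightest and the one of lowest p, differed by 1.23 ± 0.49 (SE), with -0.15 ± 0.14 on its second probe set. The part of all these cell types in the members' differences was not tested.

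**Figure D5:**
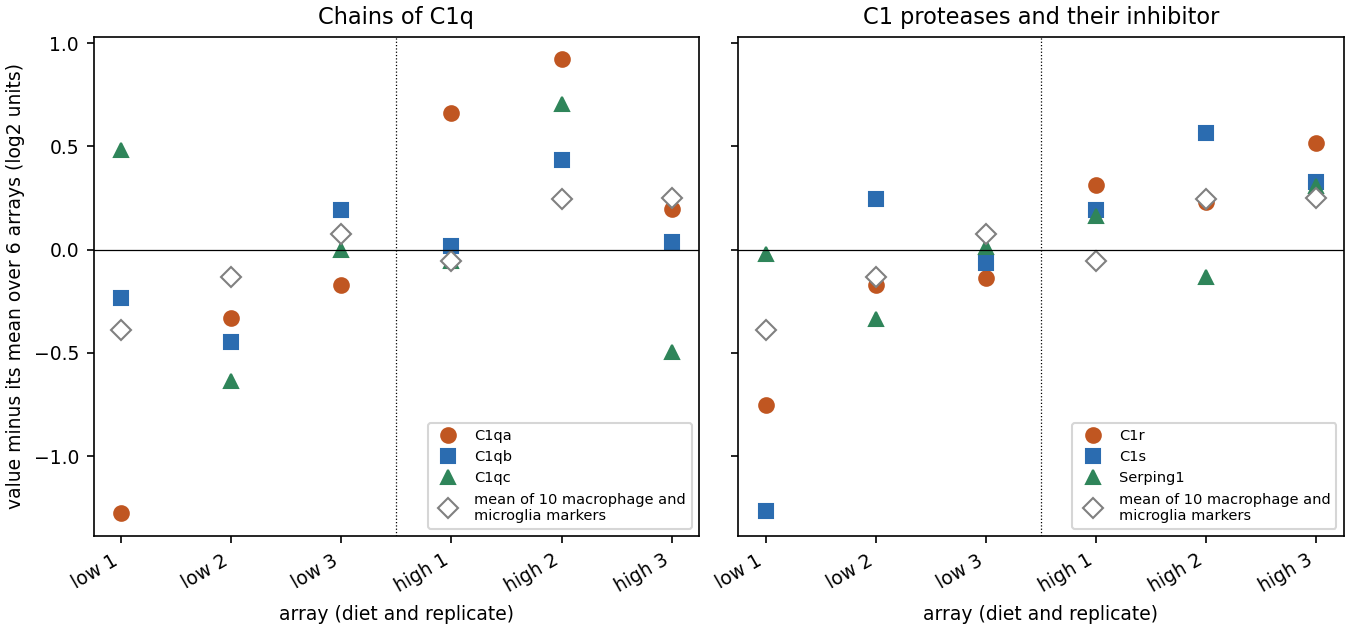
Value on each array minus its mean over 6 arrays, in log2 units (vertical axis), for the C1q chains (left) and for C1r, C1s and Serping1 (right), with the mean of 10 macrophage and microglia markers as open diamonds. C1qa goes from below 0 on all low salt arrays to above 0 on all high salt arrays, and C1qc is spread on both sides in each diet.

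Among themselves the members fell into like and unlike pairs. Likeness was taken as the root mean square distance between array values, each gene centred on its mean over 6 arrays. The closest of the 21 pairs were C1qb and Serping1 at 0.29 log2 units and C1r and C1s at 0.32, and the furthest were C3 and Serping1 at 0.73 and C1qa and Serping1 at 0.71. C1qa lay nearer to C1s (0.34) than to C1qb (0.56). The distance is small for genes that vary little, so it describes these 6 arrays only.

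By the same measure, the nearest of 5199 other genes above the median level were found for 4 members. For C1qa they were the corepressor gene Sin3b, the mitochondrial import chaperone Timm10 and the nucleotide kinase Nme1, at 0.11, 0.12 and 0.16. For C1r they were the autophagy receptor Optn, Pla1a and Colgalt1, at 0.03, 0.08 and 0.08, and Optn itself differed between diets by 0.70 ± 0.20 (SE). For C3 they were Sri, the chemokine Ccl6 and Chchd3, at 0.26, 0.32 and 0.36, and for Serping1 they were Ccar2, Babam2 and Nomo1, at 0.06, 0.06 and 0.07. These profiles share their 6 arrays and carry the array differences described above.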

How the data were processed

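Expression was measured on Affymetrix rat arrays from RNA amplified in 2 cycles. The deposited log2 values come from RMA, a method that turns probe signals into 1 value per probe set, as the submitters' processing notes name it (version: not given in the sources used here), and log base 2 was read from the value range. Of 15923 rows, 57 control probe sets were left out. Symbols came from the platform annotation, where 12783 probe sets had 1 symbol, 312 several and 2771 none; 12748 matched RefSeq GRCr8 by Entrez identifier. A gene was read from its probe set of highest mean. Differences were fitted with limma 3.58.1 in R 4.3.3 (lmFit, eBayes, no block), with Benjamini-Hochberg adjustment over 15866 probe sets and a threshold of 0.05, and the steps were tested on simulated data. Replicates are pools of rats, so their spread joins pool and array error; 3 arrays a diet limit the precision.

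The members and gene lists were chosen with earlier results of these data known. The rule for named genes takes all members, pathway genes at an unadjusted p below 0.05, the brightest gene of each role, the brightest and lowest p marker, and the 3 genes nearest in profile to C1qa, C1r, C3 and Serping1; markers are described in part. Alternatives rescaled the arrays (median centring, quantile normalization), kept only values above the 40th percentile, let variances follow a robust trend, weighted arrays, used the replicate number as a block, left out each array, averaged the probe sets of a gene, or adjusted over 10411 genes.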

Additional observations from a re-analysis of the deposited data

How the results depend on the processing

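All 7 members kept a difference above 0, and 0 passed the threshold, in all 14 alternatives; their adjusted p (limma, Benjamini-Hochberg) ran from 0.218 to 0.999. The members' median stayed between 0.48 and 0.87. The number of members higher at an unadjusted p below 0.05 was 3 in the alternatives that kept all arrays, where 2.78% to 8.86% of all genes were. It ran from 2 (without high salt replicate 1 or 3, with 2.29% and 4.59% of all genes) to 5 (without low salt replicate 3, with 5.45%), and was 4 without low salt replicate 2, with 15.3%. The number standing apart between diets ran from 3 to 5, with 5 without low salt replicate 3 or high salt replicate 1, where 13.9% and 11.9% of all genes stood apart. Of the other complement genes, 2 reached that p after median centring (Cd46 and Cfd), after quantile normalization (Mbl2 and Cfd) and with array weights (Cd46 and Cfd), where 5.5%, 5.37% and 10.6% of all genes did, and from 0 to 2 with 1 array left out: 0 without low salt replicate 3 or high salt replicate 1 or 2, and 2 without low salt replicate 1 (Cd46 and Masp1) or 2 (Clu and Cfd). C1qc stood at -0.027 with median centring and -0.12 with quantile normalization, and ran from -0.22 to 0.38 with 1 array left out. Cd59b stood at -0.038 and -0.081 in these settings and at -0.21 with array weights, and ran from -0.082 to 0.41. The cause of these turns was not tested. The estimate of array weights stopped short of its convergence tolerance.

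With the replicate number as a block, 3 members were higher at an unadjusted p below 0.05, where 4.81% of all genes were, and 0 passed the threshold. Same-numbered arrays deviated together by correlations of only -0.27 to 0.04, and 0 of 6 arrays correlated best with their own number. These values gave no sign of pairing by number. They cannot settle it, since each deviation is taken from a mean of 3 arrays.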
